A study of Rattus norvegicus with 40 samples.

Results

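The subject here is the response of DNA methylation to a high salt chow in kidney T cells of Dahl SS/JrHsdMcwi (SS/MCW) rats, called MCW rats below. The members are all 34115 regions of the deposited table that sets the LS chow group against the HS chow group at 10 weeks of age. They come from 8 of the 40 libraries of the study. Both groups were MCW rats of 10 weeks. The control group ate a chow labelled LS throughout, and the other group ate a chow labelled HS for 3 weeks, read here as low and high salt. Each group had 4 pools of 3 rats. Reduced representation bisulfite sequencing, which reads cytosine methylation in the CpG-rich share of the genome, was run on genomic DNA of cells labelled kidney T cells. The labels give no isolation method, sort or gate for these cells. The study also held blood T cells of the same pools, MCW rats on LS chow at 7 weeks, and CRL rats, a second colony of the strain, on both chows at 10 weeks.

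Dahl salt-sensitive rats were bred for hypertension under salt loading, and T cells that enter the kidney are known to contribute to the hypertension and kidney damage of this strain. DNA methylation in mammals sits mostly on cytosines of CpG pairs. Promoters rich in CpG are usually unmethylated, while most CpGs of gene bodies and of the space between genes are methylated. Each cell type keeps its own set of unmethylated enhancers and gene body regions, so that the level of a preparation depends on both the state and the mix of its cells. At imprinted control regions a single parental copy is methylated in most tissues.

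Levels are the authors' group levels in percent. The files give neither single pools nor coverage, so levels carry no spread between pools and depth is unknown. Differences are HS minus LS in percentage points, from the authors' deposited table. Calls required both an adjusted p of the authors under 0.05 and a difference of at least 10 points. The regions held between 5 and 345 CpGs, with a median of 5. Positions follow the rn5 build, and whether starts count from 0 or 1 is not stated.

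Regions called on HS chow were almost all higher. Of the 34115 regions, 4424 were called higher on HS chow (13.0%) and 80 were called lower (0.235%). The difference was above 0 in 25842 regions, below 0 in 6887 and 0 in 1386. The mean level was 24.1% on LS chow and 28.5% on HS chow, and the median difference was 1.85 points. In gene bodies the mean level was 35.8% on LS chow and 42.6% on HS chow, and 1521 of 7139 regions were called higher and 23 lower. Between genes it was 31.8% and 36.8%, with 2388 of 16032 regions called higher and 48 lower. At regions classed as near a transcription start (TSS) it was 5.35% and 7.14%, with 515 of 10944 regions called higher and 9 lower. The direction was shared across the genome: on the 20 autosomes the median difference lay between 1.24 and 3.40 points, and between 9.60% and 18.1% of regions were called higher. On the X chromosome 63 of 649 regions were called higher and 0 lower.

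**Figure D1:**
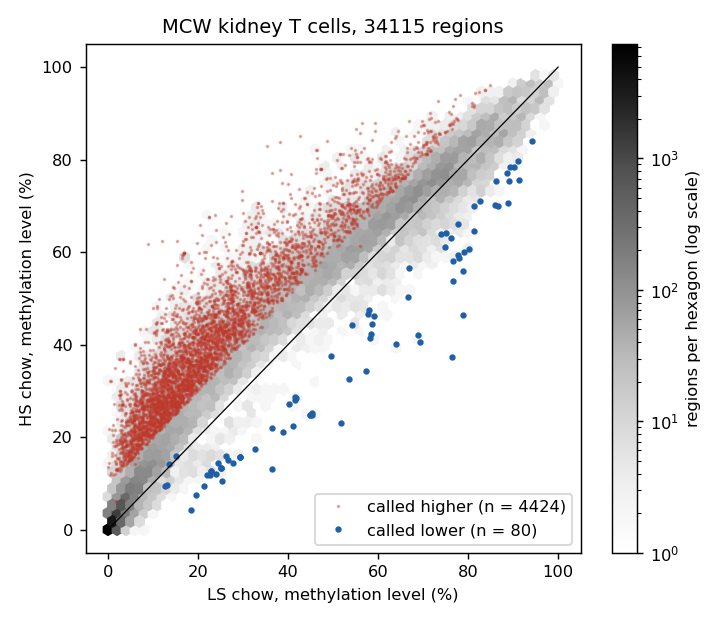
Methylation level on LS chow (x axis, %) and on HS chow (y axis, %) of the 34115 regions, with grey hexagons for the number of regions on a log scale, red points for regions called higher and blue points for regions called lower. The cloud bends above the line of equal levels between about 10% and 60% and meets it at both ends. The 80 blue points all start above 10% on LS chow, since a fall of at least 10 points has no room below that.

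The size of the difference followed the starting level. Regions under 5% on LS chow, 15702 in all, had a median difference of 0.337 points, and 210 of them were called higher. From 10% to 20% the median difference was 10.4 points and 1380 of 2906 regions were called higher. It was greatest from 20% to 30%, at 12.6 points, with 969 of 1968 regions called higher. It then shrank with each step, to 7.16 points from 50% to 60%, 2.72 points from 70% to 80% and 0.496 points from 80% to 90%. Above 90% it was -1.87 points. There 0 of 471 regions were called higher, since a rise of at least 10 points had no room. The location classes differed within one starting level: from 10% to 20% the median difference was 6.96 points at TSS regions, 12.5 points in gene bodies and 10.4 points between genes. From 40% to 50% the medians were 9.58 points at TSS regions, 9.92 points in gene bodies and 9.35 points between genes.

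**Figure D2:**
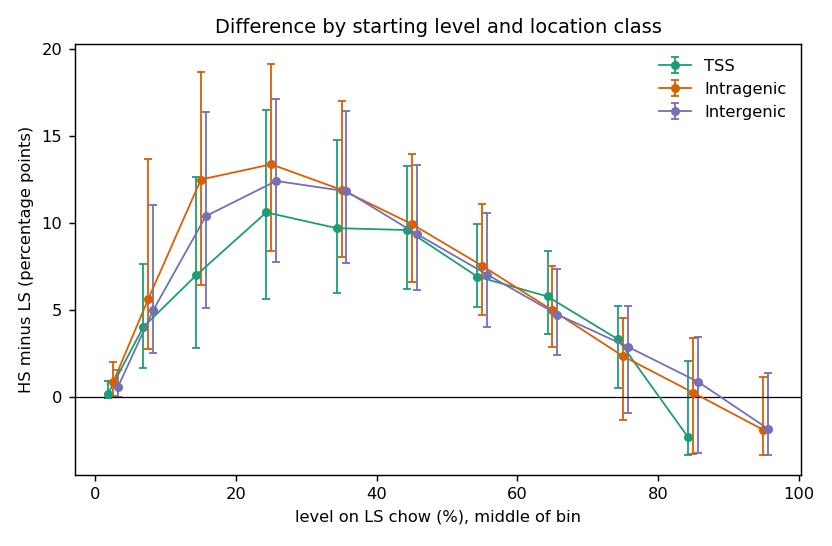
Median difference HS minus LS (y axis, percentage points) by the level on LS chow (x axis, %, middle of each bin) for the 3 location classes, with bars from the lower to the upper quartile of regions and bins under 20 regions left out. All 3 curves peak between 20% and 30%, and the TSS curve runs below the others from 10% to 40%. The level on the x axis is also a term of the difference on the y axis.

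A few promoters show the kinds of gene starts described below, and their sequences are given because CpG content and level went together. They are the 250 bases before the annotated start, 5′ to 3′ on the strand of the gene, from RefSeq (GRCr8), with each CpG in capitals. Coordinates of this build cannot be set against the rn5 regions, so the windows give context and do not place a region.
Ndufa10: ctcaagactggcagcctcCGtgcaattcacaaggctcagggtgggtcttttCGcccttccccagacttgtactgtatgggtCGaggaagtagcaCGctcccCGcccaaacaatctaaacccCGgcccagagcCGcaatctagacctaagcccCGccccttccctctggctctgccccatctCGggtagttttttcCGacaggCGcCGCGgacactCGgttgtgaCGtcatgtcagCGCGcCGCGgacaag
Plagl1: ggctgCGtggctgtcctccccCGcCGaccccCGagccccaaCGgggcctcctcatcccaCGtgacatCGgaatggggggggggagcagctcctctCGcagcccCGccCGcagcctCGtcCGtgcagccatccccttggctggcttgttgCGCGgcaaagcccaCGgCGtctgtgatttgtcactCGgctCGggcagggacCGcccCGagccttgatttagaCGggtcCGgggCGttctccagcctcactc
Slc22a8: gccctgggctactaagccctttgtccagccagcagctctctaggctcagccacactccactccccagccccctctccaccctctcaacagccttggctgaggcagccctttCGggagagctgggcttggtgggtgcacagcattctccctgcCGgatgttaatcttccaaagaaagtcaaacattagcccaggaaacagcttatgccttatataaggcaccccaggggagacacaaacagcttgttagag
Arhgap30: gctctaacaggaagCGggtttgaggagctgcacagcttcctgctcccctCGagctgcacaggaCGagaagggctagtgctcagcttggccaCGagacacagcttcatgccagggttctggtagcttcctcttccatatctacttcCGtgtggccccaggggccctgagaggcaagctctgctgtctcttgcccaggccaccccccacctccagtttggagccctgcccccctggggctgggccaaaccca
Uhmk1: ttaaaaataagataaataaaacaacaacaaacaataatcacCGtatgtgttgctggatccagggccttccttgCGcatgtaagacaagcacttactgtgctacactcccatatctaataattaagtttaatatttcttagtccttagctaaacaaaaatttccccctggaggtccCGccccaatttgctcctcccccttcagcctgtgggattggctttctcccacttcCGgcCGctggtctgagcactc
These windows lie at chr9:100489265-100489514 (minus strand), chr1:9297214-9297463 (plus), chr1:214927034-214927283 (plus), chr13:86354483-86354732 (plus) and chr13:84949062-84949311 (minus), in that order. Ndufa10, a complex I subunit whose TSS region had the largest increase of all, has 19 CpGs, and 18.4% of the 33469 RefSeq windows hold as many. Plagl1, an imprinted zinc finger gene, has 23 (12.3% hold as many). Slc22a8, a kidney organic anion transporter, has 2 (81.9%). Arhgap30, a leukocyte signalling gene, and Uhmk1, a kinase with neighbouring regions called in opposite directions, have 5 each (55.3%). Of the 10944 TSS regions, 7831 matched a gene with 1 RefSeq window. Where the 300-base window around the start held under 10 CpGs, 105 of 819 regions were called higher (12.8%) and the mean level was 16.3% on LS chow and 20.8% on HS chow. Where it held 30 or more, 71 of 2589 regions were called higher (2.74%) and the mean levels were 2.65% and 3.78%.

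The strongest increase of the table lay at a TSS region of Ndufa10 and its copy Ndufa10l1, chr9:99316810-99316835. This region of 9 CpGs was at 8.98% on LS chow and 61.8% on HS chow (adjusted p = 4.17e-11 in the authors' deposited table). A region of equal length and CpG number between genes, chr6:72383869-72383894, was at 12.0% and 62.5%. The pair had near-equal levels in the other groups too, so that reads of the 2 places may not have been told apart. At the Ndufa10 region, kidney T cells of MCW rats at 7 weeks were at 25.6%, and those of CRL rats were at 6.81% on LS chow and 32.5% on HS chow. Blood T cells of the same MCW pools were at 62.8% on LS chow and 39.9% on HS chow, the opposite order. Of the other regions among the 10 strongest increases, 7 lay between genes and 1 in Gbas, which encodes a mitochondrial protein, at 20.4% and 65.9%. A pair of those between genes, at chr13:31641694-31641761 and chr13:32171076-32171143, had the same 2 levels, 22.3% and 67.6%.

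Further TSS regions with strong increases belonged to genes of unrelated roles. Mapk4, an atypical MAP kinase, was at 21.4% on LS chow and 59.97% on HS chow, and Bbs4, a subunit of the BBSome of cilia, at 29.9% and 68.4%. Mpst, a sulfurtransferase that makes hydrogen sulfide, was at 15.4% and 53.5%.

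Genes with many called regions had varied roles. Of the 18083 regions with a gene, 2036 were called higher (11.3%) and 32 lower (0.177%). Counted by gene, 1532 of 7053 had a region called higher (21.7%) and 28 one called lower (0.397%). Jak3, the kinase of the common gamma chain cytokine receptors of lymphocytes, had 7 of 7 gene body regions called higher. They rose by between 13.7 and 34.4 points, and the strongest, chr16:19978220-19978283, was at 24.3% on LS chow and 58.7% on HS chow. Camta1, a calmodulin-binding transcription activator, had 16 of 48 regions called higher. Cmip, an adaptor of T cell signalling, had 9 of 17, all in the gene body, and its TSS regions were under 1% on both chows. Macrod1, a mono-ADP-ribosyl hydrolase, had 7 of 9, and 7 of 23 regions named for Ppil1, a spliceosome isomerase, were called higher, 4 of which also carry the name of the glutamate receptor gene Grm4. Zfta had 7 of 8. Gnas and Grb10, both imprinted, had 15 of 18 and 8 of 9.

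T cell genes shared this direction. No list had a region called lower, a call that was rare over all regions with a gene too (0.177%). Of T cell receptor and identity genes with a region, 7 of 17 had one called higher, against 21.7% of all genes. With a minimum of 20 points 4 of the 17 had such a region, and by the q-value column 0. Gene counts also depend on how many regions a gene has. By region 12 of 54 were called higher (22.2%), against 11.3% of all regions with a gene. The median difference over the 54 regions of the list was 5.87 points, against 1.04 points over all regions with a gene. These 2 sets had unlike median LS levels, 25.4% and 2.33%. Over all gene body regions, with a median LS level of 30.5%, the median difference was 5.07 points. A TSS region of Cd8a, which encodes a chain of the CD8 co-receptor, was at 37.7% on LS chow and 69.6% on HS chow (adjusted p = 0.0125 in the authors' deposited table). The other 2 TSS regions of Cd8a did not pass, at 14.6% and 19.6% and at 3.34% and 5.59%. Lef1, a transcription factor of naive T cells, was at 52.0% and 78.1% in its gene body. Fyn, a kinase that starts T cell receptor signalling, had 5 regions called higher, the strongest at 27.6% and 51.9%. Skap1, an adaptor of integrin adhesion, was at 15.7% and 35.7%. Cd247, the zeta chain of the receptor, named after its values were seen, was at 58.7% and 74.7%.

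Helper lineage transcription factors had 6 of 12 genes with a region called higher, against 21.7% of all genes. The 6 became 1 at a minimum of 20 points and 1 by the q-value column. Of the 52 regions of the list 11 were called higher (21.2%), against 11.3% of all regions with a gene. Their median difference was 2.11 points. A gene body region of Runx1 with 33 CpGs was at 6.85% on LS chow and 26.9% on HS chow. Runx3, a factor of cytotoxic lineage T cells, was at 12.6% and 32.3% at its strongest region. Prdm1, which drives effector differentiation, was at 29.97% and 47.4%, and Zbtb16, the factor of innate-like T cells, at 28.4% and 43.2%. Activation and exhaustion genes had 4 of 13 (median 4.64 points), with Nr4a2, an early response nuclear receptor, at 13.1% and 33.4% near its start. Tox2 was at 54.0% and 68.4%, Egr1 at 6.65% and 19.4% and Tnfrsf18, the receptor GITR, at 11.8% and 21.8%. Cytokine and effector genes had 2 of 7, Il12rb1 at 44.4% and 59.1% and the TSS of Il4 at 15.5% and 26.4%. Trafficking genes had 2 of 5. Klf2, which keeps T cells in circulation, was at 29.8% and 44.9% near its start, and the integrin Itgb7 at 5.40% and 17.7%. Of the innate list 2 of 9 had a region called higher, a share near the 21.7% of all genes. These were Irf8 at 29.4% and 49.8% and Nfkb1 at 23.6% and 42.4%. No region of Ifng, Il17a, Foxp3, Cd4 or Cd3e was in the table.

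Salt and blood pressure genes had 6 of 28 with a region called higher, a share near the 21.7% of all genes. By the q-value column 1 had such a region. The median difference over the 62 regions of the list was 0.822 points, against 1.04 points over all regions with a gene. The gene body of Sgk1, a salt-responsive kinase that also acts in T helper cells, was at 21.4% on LS chow and 50.04% on HS chow (adjusted p = 7.42e-04 in the authors' deposited table). Nedd4l, the ubiquitin ligase that removes the epithelial sodium channel, was at 7.37% and 37.7%. Stk39, the kinase SPAK that activates sodium chloride cotransporters, was at 20.1% and 49.0%. The taurine transporter gene Slc6a6 was at 11.3% and 34.5% near its start. Both regions of Nfat5, the osmotic stress factor, lay near its start and were under 1% on both chows.

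Of genes that write or remove DNA methylation, 1 of 5 with a region had one called higher, a share near the 21.7% of all genes. This was the stress gene Gadd45b, whose TSS was at 9.53% on LS chow and 24.0% on HS chow. Dnmt3a, a de novo methyltransferase, had 4 regions, none called, with levels of 30.1% and 32.1%, 61.2% and 67.0%, 18.2% and 23.6%, and 43.8% and 50.7%. Dnmt3b had 3 regions, none called. Dnmt1, Tet1, Tet2 and Tet3 had no region in the table. One-carbon genes had 2 of 9 with a region called higher, also near the share of all genes. These were Bhmt at 28.96% and 46.1% and Cbs at 14.5% and 27.1%. Complex I genes had 3 of 10: beside Ndufa10, Ndufb4 was at 18.5% and 46.0% and Ndufs5 at 8.97% and 22.0%, all near the start. The 52 homeobox genes with a region, of 290 regions, had 8 with one called higher, against 21.7% of all genes. Of these regions 9 were called higher (3.10%), against 11.3% of all regions with a gene. Their median difference was 1.06 points and their median LS level 1.73%. Hoxb3 was at 16.8% and 39.9% and Hoxc4 at 10.9% and 33.1%.

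**Figure D3:**
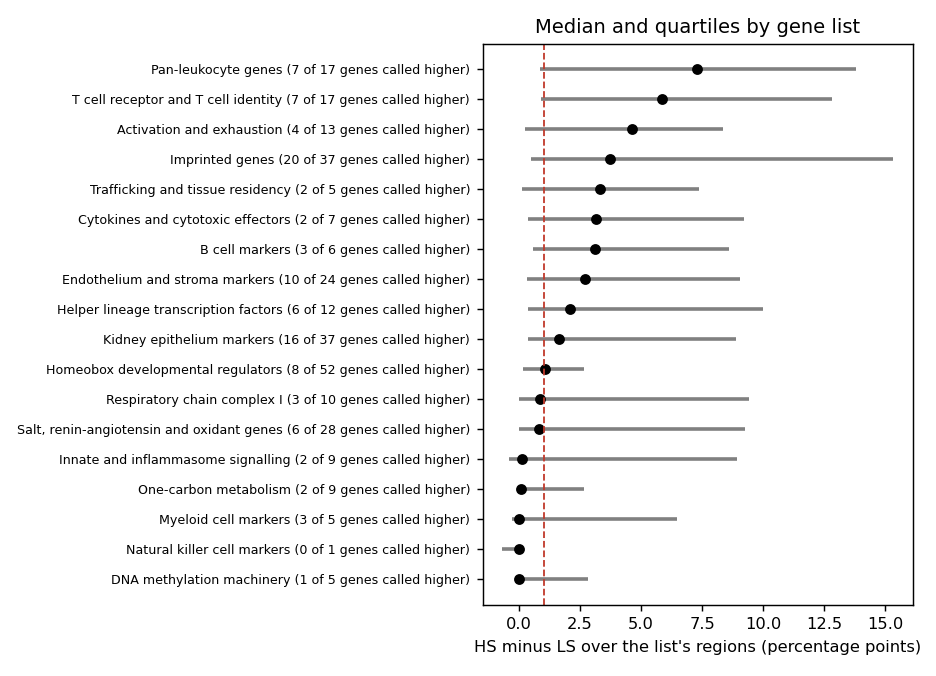
Median (points) and quartiles (bars) of the difference HS minus LS (x axis, percentage points) over the regions of each gene list, with the genes called higher of those with a region beside each name and a dashed line at 1.04 points, the median of all regions with a gene. Pan-leukocyte and T cell genes have the highest medians, and DNA methylation machinery sits at 0. The lists differ in median LS level, 31.2% for pan-leukocyte and 25.4% for T cell genes against 2.33% over all regions with a gene.

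Imprinted genes gave 45 of 129 regions called higher (34.9%), against 11.3% of all regions with a gene. These lay in 20 of 37 genes, against 21.7% of all genes. The 20 became 11 at a minimum of 20 points and 7 by the q-value column. Slc38a4, an amino acid transporter gene, was at 38.7% on LS chow and 74.9% on HS chow. Gnas, which encodes the stimulatory G protein alpha subunit, was at 12.4% and 39.1% over a TSS region of 22 CpGs, chr3:178426511-178426768. Plagl1 was at 22.0% and 54.1%, and all 3 of its called regions lay near the start. Zrsr1, a splicing factor gene within Commd1, was at 15.9% and 45.9%, and Grb10, a growth inhibitor, at 24.5% and 49.7% over its region chr14:91914909-91914983. At 23 imprinted regions blood T cells of MCW rats at 7 weeks lay between 35% and 65%. The median level of kidney T cells there was 24.5% on LS chow and 43.2% on HS chow, and 16 of the 23 were called higher. Several of these regions share a gene, most of all Gnas, so they are not 23 separate loci. In the tables that pair kidney with blood, the median at these regions was 36.9% in kidney of MCW rats on LS chow at 7 weeks. In CRL rats it was 30.4% on LS chow (19 regions) and 34.9% on HS chow (18 regions). Blood medians lay between 38.8% and 48.7% in all 5 conditions. The MCW LS group at 10 weeks thus had the lowest of the kidney medians at these regions, 21.1% in that table (22 regions). The MCW HS group had the highest, 41.3% (20 regions). At 2221 other regions of the same middle blood range the kidney medians were 22.3% on LS chow and 34.4% on HS chow, and 698 were called higher. The other direction was seen without a call at 3 neighbouring regions of Nnat and Blcap, chosen after their values were seen, for example 47.3% on LS chow and 39.0% on HS chow, while a further region of this pair was called higher, at 25.6% and 50.3%.

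The label T cell was checked against markers of other cells, some of which also had calls. Of kidney epithelium genes 16 of 37 had a region called higher and 0 had one called lower, against 21.7% and 0.397% of all genes. By region 18 of 108 were called higher (16.7%), against 11.3% of all regions with a gene. The 16 became 8 at a minimum of 20 points and 0 by the q-value column. Ggt1, the gamma-glutamyltransferase of the proximal tubule brush border, was at 16.3% on LS chow and 55.0% on HS chow. The start of Slc22a6, an organic anion transporter, was at 14.0% and 43.4%, and that of its neighbour Slc22a8 at 7.87% and 34.7%. Aqp1, an aquaporin of proximal tubule cells, was at 18.7% and 47.2%, and Slc4a4, a bicarbonate cotransporter, at 28.7% and 57.3%. Hnf4a, a transcription factor of proximal tubule cells, was at 19.2% and 35.4% near a start. At 24 regions of this list, of 86 with a value, blood T cells of MCW rats at 7 weeks exceeded kidney by over 30 points. There the kidney median was 19.0% on LS chow and 41.9% on HS chow, against blood medians of 81.4% and 82.3% in the same pools. The highest kidney levels were 57.8% and 72.7%, and the lowest blood levels 62.0% and 61.5%. Of the 24, 14 were called higher, against 65.1% of all 3945 regions with such a gap. Slc22a8 and Hnf4a were named after their values were seen.

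Of endothelium and stroma genes 10 of 24 had a region called higher, against 21.7% of all genes. By region 11 of 72 were called higher (15.3%), against 11.3% of all regions with a gene. Col4a1 was at 13.4% on LS chow and 40.3% on HS chow and Flt1 at 11.7% and 35.5%. Pecam1 was at 30.9% and 52.5% and Acta2 at 17.2% and 38.5%. The B cell list had 3 of 6, with Pax5 at 22.7% and 46.6%, Cd37 at 38.5% and 59.9% and Ebf1 at 24.8% and 37.6%. The myeloid list had 3 of 5, with Cebpe at 48.2% and 64.7%, Itgam at 12.7% and 27.7% and Fcgr1a at 18.4% and 30.3%. The natural killer list had 0 of 1. Pan-leukocyte genes had 7 of 17 and the highest median of the 18 lists, 7.30 points, at a median LS level of 31.2%. By region 14 of 42 were called higher (33.3%). Vav1 was at 31.6% and 51.9%, and Ikzf1 at 33.9% and 55.5%. At 16 regions of T cell and pan-leukocyte genes, of 73 with a value, kidney exceeded blood by over 10 points at 7 weeks. There the kidney median was 36.5% on LS chow and 43.4% on HS chow, while blood of the same pools was at 3.66% and 3.48%, and 3 of the 16 were called higher. Such calls covered 12.2% of all regions where kidney exceeded blood by 10 to 30 points, and 26.0% where it did so by over 30. Among the 16, the start of Arhgap30 was at 25.2% and 45.1% in kidney, and at 0.176% and 0.475% in blood. Both sets were picked for their 7-week gap, and the whole lists differ from them. Over all 86 kidney epithelium regions with a value the 7-week medians were 9.88% in blood and 10.3% in kidney. Over the T cell list they were 44.3% and 37.6% (37 regions), and over the pan-leukocyte list 65.0% and 42.0% (36 regions), with 10 and 14 regions where blood exceeded kidney by over 30 points. A change in cell mix and a change within T cells cannot be told apart in these group levels, and the part of other cell types in the salt difference was not tested.

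**Figure D4:**
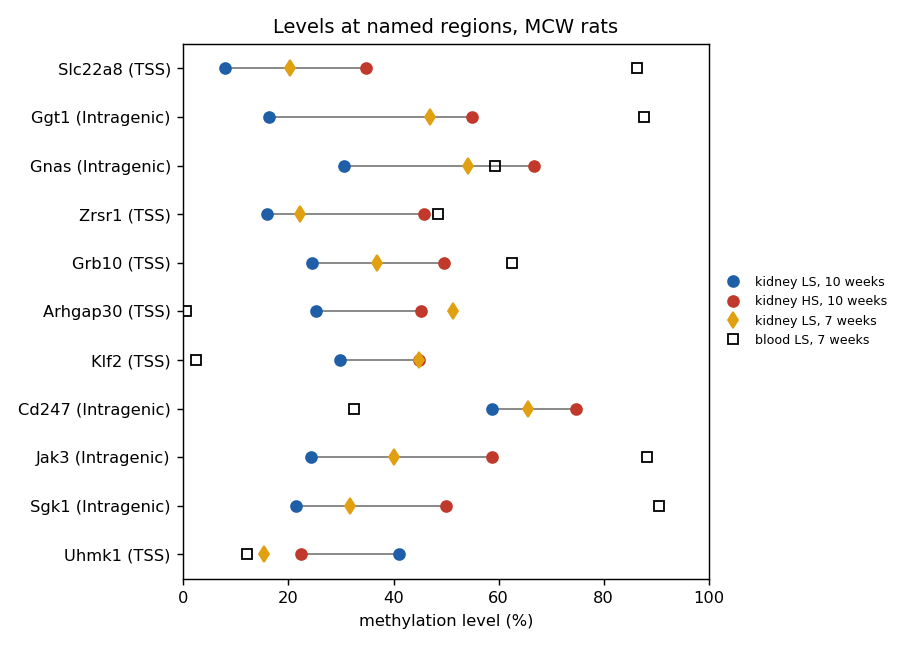
Methylation level (x axis, %) at 1 region of each of 11 named genes (y axis) in MCW rats: kidney on LS chow (blue) and on HS chow (red) at 10 weeks, kidney at 7 weeks (diamonds) and blood at 7 weeks (open squares). For 10 of the 11 genes the region shown was picked among those called higher, by the largest difference. For Uhmk1 it was picked as called lower, so the order of red and blue points was set by this choice. Among the 10, blood is high at Slc22a8, Ggt1 and Jak3 and low at Arhgap30 and Klf2.

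Libraries of MCW rats on LS chow at 7 weeks, which the salt table does not use, sorted the regions. Of the 34115 regions 25210 overlapped a region of that kidney and blood table. Where the 2 tissues lay within 5 points of each other at 7 weeks, 11121 regions, the median salt difference was 0.377 points and 0.800% were called higher. The difference grew with the distance between the tissues. Where blood exceeded kidney by over 30 points, 3945 regions, the median was 14.5 points, 65.1% were called higher and 99.7% had a difference above 0. These regions held 2568 of the 3924 regions called higher in this overlap. Where kidney exceeded blood by over 30 points, 273 regions, the median was 8.41 points and 71 were called higher against 2 called lower. The order depended on the starting level. Among regions between 10% and 30% on LS chow the median difference was 16.2 points where blood exceeded kidney by over 40 points, 2.91 points where the tissues lay within 5 points and 7.97 points where kidney exceeded blood by over 20 points. Between 30% and 50% it was 14.5, 6.92 and 8.53 points in these 3 classes. There 24.1% of the 79 regions within 5 points were called higher, and 17.8% of the 241 where kidney exceeded blood by over 20 points. Between 50% and 70% the median difference was 3.91 points within 5 points and 1.97 points where kidney exceeded blood by over 20 points (71 regions). At 70% and over, the median was 1.26 points within 5 points, -4.27 points where kidney exceeded blood by 5 to 20 points (44 regions) and -2.84 points where it did so by over 20 points (8 regions).

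Regions of opposite tissue pattern had the same sign of difference. At 1246 regions over 70% in blood and under 30% in kidney at 7 weeks, kidney was at a median of 13.9% on LS chow and 31.5% on HS chow, against 21.1% at 7 weeks, and 1062 were called higher and 0 lower. At 312 regions under 10% in blood and over 20% in kidney, kidney was at a median of 27.2% on LS chow and 35.01% on HS chow, against 35.3% at 7 weeks, and 69 were called higher and 3 lower. Both sets were picked on the 7-week levels themselves, which those medians share. At 8116 regions under 5% in both tissues 1 was called higher. Regions alike in both tissues at other levels had more calls: from 35% to 65% in both, 162 of 751 were called higher (median difference 7.83 points), and at 80% and over in both, 39 of 1250. Among the 210 regions called higher from under 5% on LS chow, 155 overlapped a 7-week region, and 110 of these were over 50% in blood.

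**Figure D5:**
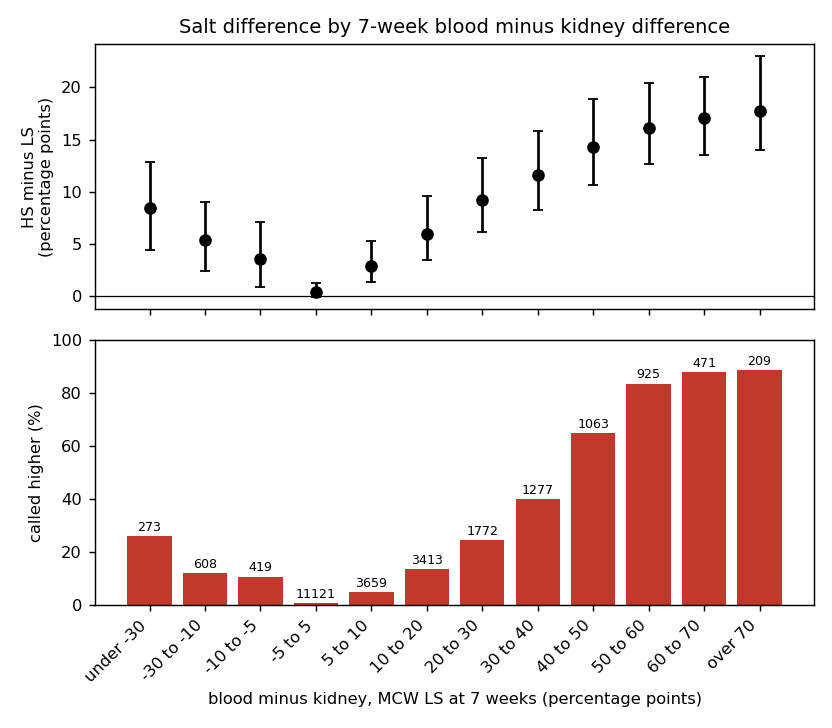
Upper panel, median and quartiles of the salt difference (y axis, percentage points); lower panel, share of regions called higher (y axis, %, number of regions over each bar), both by the 7-week difference blood minus kidney (x axis, percentage points). The median is lowest where the tissues agree and climbs on both sides, to 17.8 points where blood exceeds kidney by over 70 points. The classes differ in starting level: the class within 5 points had a median LS level of 0.767%.

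Over the 13958 regions that also lay in all 5 tables pairing kidney with blood, the kidney median was 14.4% for MCW LS and 27.2% for MCW HS at 10 weeks, 19.3% in the younger MCW LS group, and 14.6% and 19.3% in CRL rats on LS and HS chow. The LS group of MCW rats thus lay beside that of CRL rats, and the HS group of MCW rats stood above all the others. Blood medians lay between 49.8% and 50.6%. These tables share the kidney libraries of the 2 MCW groups, and they segment regions anew.

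Kidney T cells of CRL rats on the same chows, with no library in common, had 1284 of 39016 regions called higher (3.29%) and 167 lower (0.428%). In the 16159 regions of both tables, 872 were called higher in both, 31.5% of the 2764 called in MCW and 75.7% of the 1152 called in CRL, where 17.1% and 7.13% of all shared regions were called. At regions called higher in MCW the median CRL difference was 8.13 points, against 0.892 points over all shared regions, and it was above 0 in 87.3% of them. At the Gnas region given above CRL rats were at 9.78% and 21.3%, and at that of Grb10 at 25.3% and 40.8%. Of the 100 shared regions called lower in CRL, 24 were called higher in MCW and 13 lower, and 1 of the 54 called lower in MCW was called higher in CRL. The difference between the colonies was not tested, since the tables used here give group levels only.

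Blood T cells of the same MCW pools had 67 of 33567 regions called higher (0.200%) and 90 lower (0.268%). At the 1850 regions called higher in kidney that were also in the blood table, the median blood difference was -1.10 points, 25 were called higher in blood and 23 lower. Those 25 were 1.35% of the kidney list and 50% of the 50 regions called higher in blood. The 23 were 23 of the 53 regions called lower in blood, so that regions called in blood in either direction were often called higher in kidney. Of the 42 regions called lower in kidney, 0 were called lower in blood, too few regions to read given the small share called lower in blood. Over all 13774 shared regions 13.4% were called higher in kidney and 0.363% in blood, and 0.305% were called lower in kidney and 0.385% in blood. The difference between the tissues was not tested.

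Regions called lower on HS chow were few, and those near ribosomal RNA genes are given apart from the others. Of the 80, 25 lay within 1 Mb of regions named for ribosomal RNA genes on chromosomes 1, 5, 6 and 14. Of these 25, 10 were themselves named for such genes or for LOC257642 or LOC310926, symbols that share some regions with them. Regions of these symbols were counted with the ribosomal RNA ones in setting the distance. A further 15 regions within 1 Mb were called higher. Whether reads of repeated copies could be told apart there was not tested. Of Rn5-8s, a ribosomal RNA gene, 4 regions on chromosomes 1, 5 and 14 fell, 3 of them with levels equal within 0.01 points, for example chr14:46823416-46823446 from 25.2% to 13.3%, and the other from 24.0% to 12.1%. CRL kidney differed by -13.8 points there in the authors' deposited table. Another 4 regions of Rn5-8s were called higher, from 19.1% to 45.7% and from 20.3% to 48.0%, each pair of levels at 2 places. Over all 539 regions within that distance the median difference was 2.06 points, above 0 in 80.1%.

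Of the 55 other regions called lower, 33 lay between genes. The strongest, chr17:67935356-67935489, fell from 76.5% to 37.3%, and had no overlapping region in CRL kidney. Next, chr11:68309947-68310016 fell from 78.9% to 46.4%, while the deposited CRL kidney difference was -2.25 points. At chr9:101894782-101894867 the level fell from 51.8% to 23.2%, and in CRL kidney it was 61.7% on LS chow and 37.5% on HS chow. A region of 18 CpGs, chr16:74422644-74423216, fell from 57.4% to 34.2%, with 65.3% and 47.1% in CRL kidney. In gene bodies, Calcrl, the receptor of calcitonin gene-related peptide and adrenomedullin, fell from 69.4% to 40.6%, with 71.5% and 66.2% in CRL kidney. At the overlapping regions of the kidney and blood comparisons, Calcrl was at 74.9% on LS chow and 66.7% on HS chow in MCW kidney, a smaller fall. Ppp2r5c, a regulatory subunit of protein phosphatase 2A, fell from 68.8% to 42.1%, with 71.9% and 56.4% in CRL kidney. In all 13 regions were called lower in both colonies, 24.1% of the 54 MCW ones and 13.0% of the 100 CRL ones, and 6 of the 13 lay near ribosomal RNA genes. Near starts, Ajap1, a junction protein gene, fell from 53.5% to 32.6%, with 48.0% and 38.7% in CRL kidney, where it was not called. Of the 80 regions 58 held 5 CpGs (72.5%), against 57.9% of the regions called higher. By the q-value column of the authors' deposited table under 0.05, 0 regions were lower and 372 higher.

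A few genes carried calls in both directions, 12 in all. Near the start of Uhmk1, chr13:93162306-93162350 fell from 41.1% to 22.4%, while chr13:93162496-93162578, with 15 CpGs, rose from 6.80% to 19.7% and chr13:93162579-93162614 rose from 27.0% to 52.7%. Each of the 3 had the same sign in CRL kidney, where the differences of the authors' deposited table were -18.2, 5.79 and 12.2 points at overlapping regions. In Kdm1b, a histone H3 lysine 4 demethylase, 1 gene body region rose from 14.5% to 52.6% and the other fell from 76.8% to 53.8%, so that both ended near the same level. Crb2, a cell polarity gene, had 2 TSS regions called higher, the stronger from 16.8% to 39.9%, and 1 gene body region that fell from 41.6% to 28.7%. Rn28s and Rn5-8s complete the 5 with the strongest calls.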

How the data were processed

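The tables analysed here were deposited by the authors for 40 reduced representation bisulfite libraries of rat T cells, read in 100 cycles of paired-end sequencing. Per the file headers, each table gives regions with a methylation fraction per group (printed in percent), the difference, a CpG number, Mann-Whitney p-values with an adjusted form, and a q-value. Positions are on rn5, per the submitters' processing notes. The aligner is, like the region caller, not given in the sources used here. No table holds values per pool or depth, so no model was fitted, calls rest on the authors' adjusted p-values, and depth is unknown. These reach 3.70e-14 before adjustment, while 0.0286 is the smallest value of an exact rank test on 4 and 4 pools, so they treat CpGs as independent and speak of these pools only. Recomputing a Benjamini-Hochberg adjustment over the table gave the same adjusted values.

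Differences were turned to HS minus LS. The deposited difference departed from that of the levels by over 0.2 points in 3.49% of regions. Of 24125 regions between 1% and 99% on LS chow, 992 shared both levels and CpG number with another, and p-values count them apart. Levels of a group differ somewhat between tables, since each segments regions anew: at equal boundaries the MCW LS level was equal within 0.01 points in 66.4% to 75.7% of regions and the MCW HS level in 97.2% to 97.9%. Tables were joined at an overlap of at least 1 base. Of the 15 tables, 11 were used. Of 7061 gene symbols 6638 were current in RefSeq (GRCr8) and 327 matched 1 synonym.

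The members, the 18 gene lists and the naming rule were chosen with earlier results of these data known. The rule took the 10 strongest increases and decreases, the 5 strongest of each at TSS regions, the 8 genes with most calls, up to 4 members of each list, up to 5 genes called both ways, and a fixed set of T cell and methylation genes with Sgk1 and Nfat5. Some items it names are not reported here. Python 3.11.15, pandas 2.3.3 and numpy 2.4.6 were used. The calling and overlap steps were tested on simulated data.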

Additional observations from a re-analysis of the deposited data

How the results depend on the processing

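The excess of regions called higher held under each of the 11 alternatives run, with between 89.6% and 100.0% of called regions higher against 98.2% in the report. The counts moved with the limits. With no minimum difference 8230 regions were called higher and 954 lower, with a minimum of 20 points 1370 and 15, and with 25 points 548 and 5. With the adjusted p under 0.01 the lower count was 42. With at least 10 CpGs 618 were called higher and 11 lower. The authors' q-value column under 0.05, which is another test, left 372 higher and 0 lower, and kept 7 of the 29 strongest named regions. Counting regions of equal levels once (4303 and 79), or leaving out those near ribosomal RNA genes (4409 and 55), were alternatives chosen after seeing the data, and moved the counts less. The median difference was 6.77 points over regions of at least 10% in 1 group and 1.10 points over regions of at least 10 CpGs.

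At a minimum of 20 points, 86 regions were called higher and 2 lower in both colonies, and 1 was called higher in kidney and blood. With an overlap of 50% of both regions this last count was 15. By 7-week class at a minimum of 20 points, 21.3% were called higher where blood exceeded kidney by over 30 points, 0.234% where the tissues lay within 5 points and 8.42% where kidney exceeded blood by over 30 points. For the class within 5 points, the 50% overlap gave a median of 0.626 points and 1.27%. As the difference of the levels, 2 of the 80 regions called lower changed sign, both ribosomal RNA regions on chromosome 14. That of Rn28s and LOC257642, with 77 CpGs, went from -13.0 points as deposited to 0.592 points, and that of LOC310926 and Rn45s, with 64 CpGs, had a deposited difference of -16.5 points but levels of 15.2% on LS chow and 16.0% on HS chow. Of the 18 gene lists, the number of genes called higher moved by over 1.5 times in 14 at 20 points and in 17 by the q-value column. The cause was not tested. No paired analysis was possible because the deposited tables hold group levels and no value per pool, and for the same reason no pool could be left out in turn. Depth limits cannot be given.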
